A study of Homo sapiens with 8 samples.

Results

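Subtelomeric ends of human chromosome arms were examined in maps of newly made DNA from single cells. The members are the 100 kb bins in the first and the last 2 Mb of chromosomes 1 to 22, with the chromosome end taken as the last position at which any fragment lay. The first 2 Mb of chromosomes 13, 14, 15, 21 and 22 were left out, so 39 arm ends remained, 17 on short (p) and 22 on long (q) arms. They hold 780 of 28280 bins. The next 2 Mb inward on the same arms, another 780 bins, served as the comparison.

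The cells were RPE-1 hTERT, human epithelial cells of the retinal pigment layer that are kept dividing by telomerase, as a CFAP20 knockout (KO) and as wild type (WT). CFAP20 is known from cilia, and the title of the study concerns its action on arrested RNA polymerase II ahead of replication forks. Both genotypes received EdU at 10 µM for 15 min, which is built into DNA in place of thymidine, and no other treatment is given in the labels. They were fixed in ethanol and sorted together into 8 plates for scEdU-seq, which sequences the EdU-labelled DNA of each cell. The labels do not say how many knockout clones were used or whether plates were separate cultures, and p-values here reflect no spread wider than that between plates. Labelled DNA does not show whether the CFAP20 protein was lost.

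Telomeres are the repeat caps of chromosomes, and the subtelomeric DNA next to them mixes unique genes with blocks that are duplicated between ends. In human cells many arm ends are rich in genes, in CpG islands and in G and C, features that usually go with replication early in S phase. Other ends carry long neuronal genes, olfactory receptor clusters or zinc finger clusters, and such DNA often replicates late. Telomere-proximal DNA is copied mostly by forks that run outward, since few origins lie beyond it.

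The promoters of 3 genes show the range of sequence at the ends. RTEL1 encodes a helicase that unwinds telomeric loops and lay in one of the 5 earliest member bins. IRF4 encodes a transcription factor of lymphoid cells and pigment cells and lay at the 6p end, where timing differed most between the genotypes. CHL1 encodes a neural adhesion molecule and lay at 3p, the latest end. The sequences are from RefSeq (GRCh38.p14), plus strand, at chr20:63657560-63657859, chr6:391502-391801 and chr3:197639-197938, and capitals mark CG dinucleotides.
RTEL1: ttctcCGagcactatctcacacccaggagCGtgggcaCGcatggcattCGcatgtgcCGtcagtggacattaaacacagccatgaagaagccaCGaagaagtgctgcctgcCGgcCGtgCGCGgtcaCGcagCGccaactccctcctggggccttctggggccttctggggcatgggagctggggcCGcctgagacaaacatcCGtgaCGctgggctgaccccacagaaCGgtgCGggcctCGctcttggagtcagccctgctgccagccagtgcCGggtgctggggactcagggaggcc
IRF4: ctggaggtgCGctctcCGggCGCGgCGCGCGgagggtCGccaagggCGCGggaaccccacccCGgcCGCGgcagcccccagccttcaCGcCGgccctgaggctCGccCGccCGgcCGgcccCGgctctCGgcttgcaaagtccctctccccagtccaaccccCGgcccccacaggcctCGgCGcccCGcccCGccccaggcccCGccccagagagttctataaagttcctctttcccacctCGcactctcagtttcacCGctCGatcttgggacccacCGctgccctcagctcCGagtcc
CHL1: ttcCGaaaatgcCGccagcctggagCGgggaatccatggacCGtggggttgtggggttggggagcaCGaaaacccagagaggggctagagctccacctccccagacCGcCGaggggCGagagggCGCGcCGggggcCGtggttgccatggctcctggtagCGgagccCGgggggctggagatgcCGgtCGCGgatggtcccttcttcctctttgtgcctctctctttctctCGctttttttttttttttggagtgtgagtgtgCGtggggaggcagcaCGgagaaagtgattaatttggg
The RTEL1 window held 19 CG dinucleotides at 65.3% G and C, the IRF4 window 32 at 74%, and the CHL1 window 20 at 61.7%. Over 966 promoters in the outer zones the medians were 31 CG dinucleotides and 69.7% G and C, against 28 and 67.7% over 594 promoters in the inner zones and 22 and 63% over all 15101 promoters of the table. At ends replicated early (timing under 0.3 on a scale from 0, early, to 1, late) the medians over 513 promoters were 34 and 70.7%. The telomere hexamer TTAGGG, on either strand, was found in 6.94% of outer promoters, 9.43% of inner promoters and 8.73% of all promoters, and in none of the 3 shown.

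The plates held 26148975 fragments in 3023 wells, 1746074 to 4181841 a plate. At least 1000 autosomal molecules were found in 1140 KO and 1290 WT cells, and these entered the comparisons, with 129 to 162 KO and 132 to 190 WT cells a plate. All plates use the same 378 well barcodes, of which 377 occurred on every plate, while the genotype of a barcode was the same on every plate for only 7. Outer zones held 447356 molecules, 15710 to 25127 per plate in KO and 14212 to 47379 in WT cells, and inner zones held 591309. Intervals for counts are not given, since 3.26% to 4.62% of fragments repeated another of the same cell, position and direction.

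Coverage was thinner at the ends than inward of them. A bin was called usable when it held at least 0.1 of the median of 927 molecules per bin, and 676 of 780 outer bins passed (86.7%), against 743 of 780 inner bins (95.3%) and 92.5% of all other bins. Of the outer bins, 30 held no molecule at all. The 8p end had the fewest usable bins, 7 of 20, followed by 9 each at 11p and 14q and 10 at 17p. The cause of this was not tested. Outer zones made up 2.60% of usable bins, and their usable bins held 1.89% of all autosomal molecules.

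Arm ends were labelled in earlier cells than the DNA inward of them, and carried fewer molecules. Cells were placed along S phase by a correspondence analysis of their label, from 0 (early) to 1 (late), and the timing of a region is the mean position of cells weighted by their molecules in it. Averaged over the 39 ends, the outer 2 Mb were earlier than the next 2 Mb by -0.0694 ± 0.0116 in KO and by -0.0823 ± 0.00884 in WT (SD, n = 8 plates). Every plate had the outer zone earlier, in both genotypes (exact sign-flip permutation test, adjusted p = 0.0117 for each). The difference kept its direction but was smaller with zones of 1 Mb (-0.0197 in KO and -0.0237 in WT), as the median over ends (-0.0266 in KO and -0.0519 in WT), with equal weight per cell (-0.0418 in KO and -0.0497 in WT) and without chromosomes 7, 10, 12, 19 and 20 (-0.0299 in KO and -0.0438 in WT). Molecules per usable bin were lower in the outer zone by -0.33 ± 0.06 on the log2 scale in KO and -0.33 ± 0.04 in WT, again in all 8 plates (adjusted p = 0.0117). With bins of at least 0.5 of the median alone, over 32 ends, the ratio was -0.18 in KO and -0.14 in WT, with the same adjusted p. Between the outermost 1 Mb and the next 1 Mb, over 36 ends, the log2 ratio was 0.01 in KO and 0.06 in WT.

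The profile away from the end shows where the step lay. From 0 to 0.5, 0.5 to 1, 1 to 1.5 and 1.5 to 2 Mb, KO timing averaged 0.418, 0.399, 0.404 and 0.437, and WT timing 0.399, 0.379, 0.388 and 0.414. In the next 0.5 Mb it was 0.486 in KO and 0.474 in WT. Molecules per bin, with the mean of all bins as 1, lay between 0.702 and 0.733 in KO and between 0.719 and 0.746 in WT over the outer 4 steps, against 0.842 in KO and 0.844 in WT at 2 to 2.5 Mb. Molecules thus varied little over the outermost 2 Mb and were higher inward of them, reaching 1.01 in KO and 1.03 in WT at 5.5 to 6 Mb. In none of the 8 steps up to 4 Mb did the KO minus WT difference pass the exact sign-flip test, in timing (lowest adjusted p 0.229) or in molecules (lowest 0.375).

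**Figure D1:**
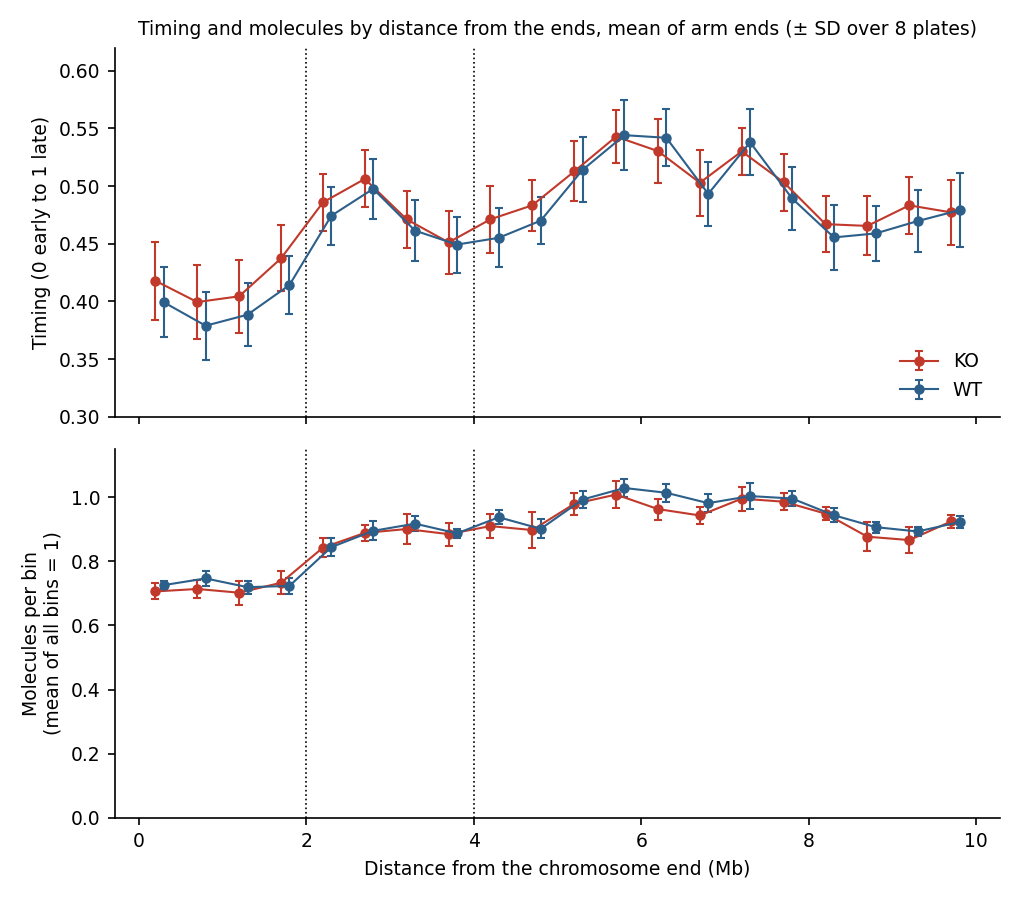
Mean timing (top; 0 early, 1 late; axis from 0.3) and molecules per usable 100 kb bin (bottom; mean of all bins as 1) in 0.5 Mb steps from the chromosome end, in KO and WT, with SD over 8 plates. Dotted lines mark 2 and 4 Mb. Timing is 0.379 to 0.437 and molecules are 0.702 to 0.746 within the outermost 2 Mb, below the steps inward of them.

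Against all other autosomal 2 Mb windows, too, the ends were early and sparse in label. With both genotypes together the 39 outer windows had a mean timing of 0.416 ± 0.0292 and the other 1308 windows 0.496 ± 0.0235, a difference of -0.0805 ± 0.00944 (SD, n = 8). Molecules relative to the mean bin were 0.724 ± 0.0117 in outer windows and 1.00 ± 0.000472 in the others. The outer value was lower in 8 of 8 plates for both measures (exact sign-flip test, adjusted p = 0.00781, the smallest that 8 plates allow). Early DNA as a whole held fewer molecules here, so windows were also compared within classes of like timing. Among windows with timing under 0.3, the 16 outer ones held 0.493 and the 282 others 0.739. Between 0.3 and 0.6 the 14 outer windows held 0.815 and the 593 others 1.00, and over 0.6 the 9 outer windows held 0.993 and the 433 others 1.17. In each class the outer windows were lower in 8 of 8 plates (adjusted exact p = 0.00781).

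Gene number differed as well. The outer zones held 1291 protein-coding genes, a median of 29 per end and 2 to 97, against 743 in the inner zones, a median of 12; the other 2 Mb windows had a median of 9. At least 40 genes were found in 30.8% of outer and 5.81% of other windows. Timing under 0.3 was found in 41.0% of outer windows, 21.6% of others. Across the 39 ends, timing and gene number had a Pearson correlation of -0.619, timing and molecules one of 0.802, and outer and inner timing one of 0.566. These describe the ends only, which share libraries and differ in base composition. Fragments in outer zones were shorter than those outside both zones: their median length was 243 bp in outer zones, against 243.5 bp in inner zones and 248.75 bp elsewhere, the last difference being -5.75 ± 2.12 bp (SD, n = 8; adjusted exact p = 0.0156). The part of base composition or fragment length in the lower molecule numbers was not tested.

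The mean hides wide differences between ends, whose timing with both genotypes together ran from 0.178 to 0.873, with a median of 0.374. Of the 39 ends, 16 lay under 0.3 and 9 over 0.6; of the inner windows, 12 lay under 0.3 and 11 over 0.6. The earliest was 20q (chr20:62333916-64333915), which carries ZBTB46 and MYT1. Its timing was 0.144 in the lowest plate, 0.172 in the median plate and 0.225 in the highest. The 16p, 11p, 17p and 3q ends followed with means of 0.186 to 0.194. The 16p end holds 97 genes, among them LMF1, a chaperone of lipases, and IFT140, a part of the ciliary transport complex. The 11p end holds 70 genes, including the adaptor subunit gene AP2A2 and the kinase gene BRSK2. ABR and VPS53, a vesicle tethering subunit, lie at 17p, and DLG1, a scaffold protein of cell polarity, and the kinase gene PAK2 at 3q. The plate ranges of these 5 ends overlapped.

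The latest end was 3p (chr3:1-2000000), with 0.794 in the lowest plate, 0.886 in the median plate and 0.904 in the highest. Its only 2 protein-coding genes are CNTN6 and CHL1, both of neural cell adhesion. The 4q end followed at 0.825 ± 0.0309 (SD, n = 8), with 3 genes, FRG1, DUX4 and FRG2. DUX4 and FRG2 have near-identical copies at other ends, so their molecules are of uncertain origin. The 11q end, with the adhesion genes OPCML and JAM3 and the condensin gene NCAPD3, had 0.788 ± 0.0287. The 8p end, with the synaptic scaffold gene DLGAP2, had 0.723 ± 0.0272 over its 7 usable bins. The bin at the midpoint of DLGAP2 had no timing, with 0.0444 of the mean bin in KO and 0.0297 in WT. The 2p end, with SNTG2 and MYT1L, had 0.697 ± 0.0402. The lowest plate of these 5 late ends was 0.628, at 2p, and the highest plate of the 5 early ends 0.251, at 11p. The median timing was 0.374 over the 17 p ends and 0.382 over the 22 q ends.

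**Figure D2:**
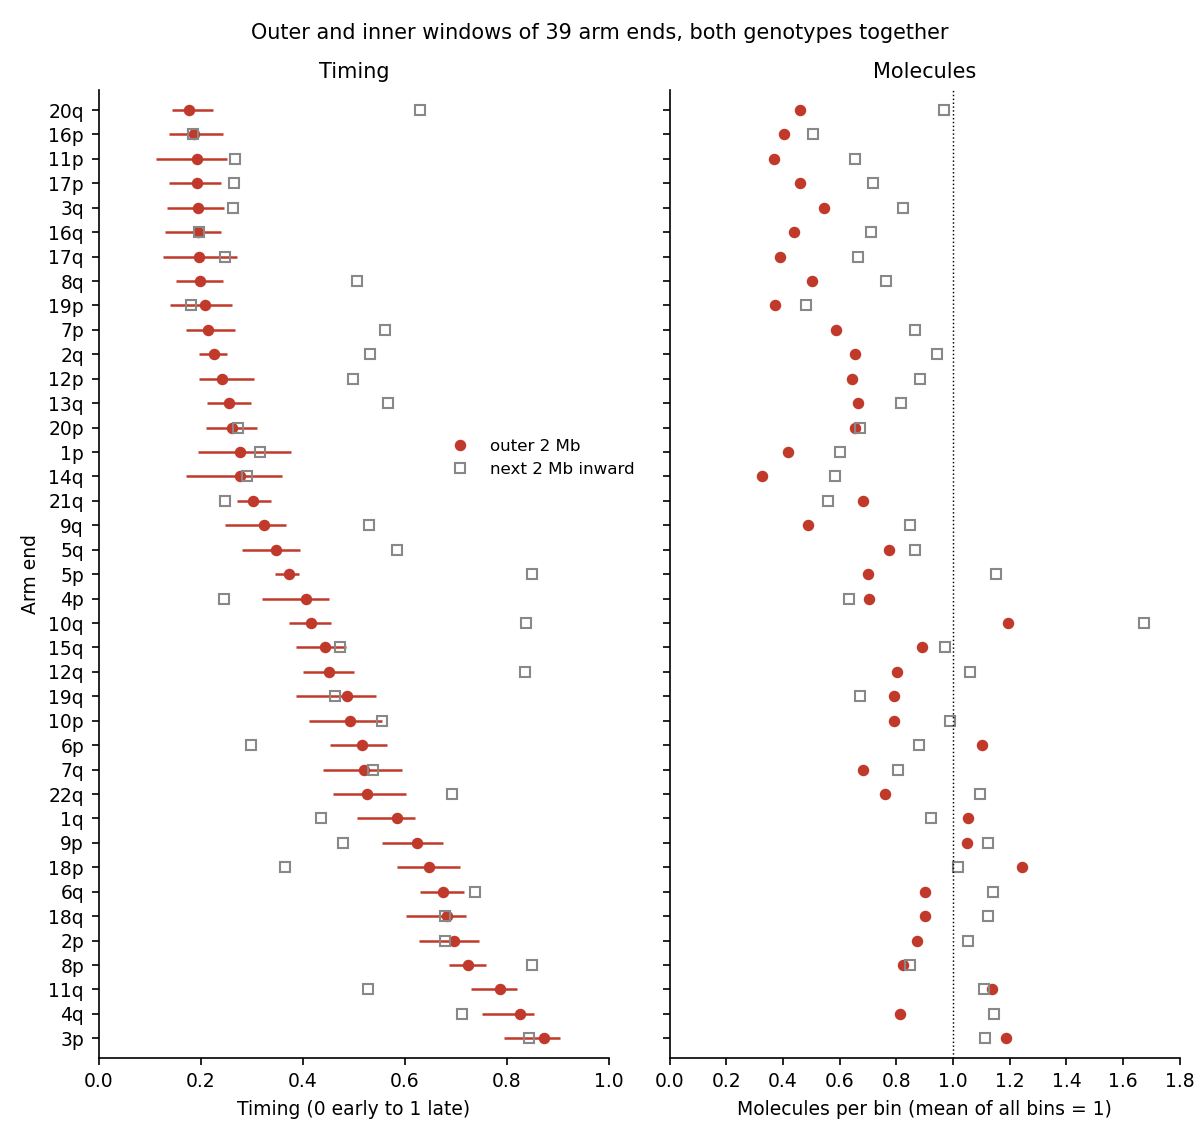
Timing (left; 0 early, 1 late) and molecules per usable bin (right; mean of all bins as 1) of the outer 2 Mb (filled circles; lines span the 8 plates) and the next 2 Mb inward (open squares) for each of 39 arm ends, both genotypes together, sorted by outer timing. Outer timing runs from 0.178 at 20q to 0.873 at 3p, and 32 of 39 outer windows lie under the mean bin.

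Pairs of adjacent windows were compared end by end. The outer window was earlier than the inner one at 21 of 39 ends and later at 12 (limma, adjusted p under 0.05 over all pairs), while of all 1295 adjacent 2 Mb pairs of the autosomes 45% were called in the first direction and 45.2% in the second, 90.2% together. Most neighbouring windows of the genome thus differ in timing, and these counts say little about ends. Some steps at the ends were steep. At 5p, which carries AHRR, a repressor of the aryl hydrocarbon receptor, the chloride cotransporter gene SLC12A7 and TERT, timing was 0.374 ± 0.0162 in the outer and 0.850 ± 0.0474 in the inner window (SD, n = 8). The difference was -0.476 ± 0.0178 (SE; adjusted p = 4.1e-19), and the inner window holds 2 genes against 28 in the outer. At 20q the outer window lay at 0.178 and the inner at 0.631, at 10q (INPP5A, JAKMIP3, CFAP46) at 0.417 and 0.838, at 12q (GALNT9, EP400, FBRSL1) at 0.451 and 0.836, and at 7p (MAD1L1, PRKAR1B) at 0.214 and 0.562. In each of these 5, all 8 plates had the outer window earlier.

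The reverse step was found at 18p, 11q, 6p, 4p and 1q, in 8 of 8 plates each. At 18p the outer window, with COLEC12, YES1 and USP14, lay at 0.647 ± 0.0484 and the inner at 0.365 ± 0.0343 (SD, n = 8), a difference of 0.282 ± 0.0131 (SE; adjusted p = 4.25e-17). At 11q the outer and inner timings were 0.788 and 0.527, at 6p 0.517 and 0.299, at 4p (FAM53A and the histone methyltransferase gene NSD2) 0.407 and 0.245, and at 1q (OR2L13, GCSAML, ZNF695) 0.585 and 0.436. The 1q outer window holds 56 genes and its inner window 8, while the 6p outer window holds 8 and its inner window 14.

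Molecules per usable bin fell outward at 28 of 39 ends and rose at 6 (limma, adjusted p under 0.05), where all adjacent pairs gave 34.4% lower and 31.7% higher, 66.1% together. The median log2 ratio was -0.34 over the ends and -0.01 over all pairs. The lowest ratios were -1.07 ± 0.07 at 20q, -0.84 ± 0.06 at 11p, -0.84 ± 0.05 at 14q, -0.80 ± 0.06 at 9q and -0.78 ± 0.07 at 17q (log2, SE), each with 8 of 8 plates below 0. The 14q end, with BRF1, a subunit of the RNA polymerase III machinery, PACS2 and MTA1, had the fewest molecules of any end per usable bin, 0.325 of the mean. The highest ratios were 0.33 ± 0.06 at 6p, 0.29 ± 0.06 at 21q (PCBP3, ADARB1, DIP2A), 0.28 ± 0.05 at 18p, 0.24 ± 0.05 at 19q and 0.18 ± 0.06 at 1q, above 0 in 8 plates at 21q and 18p, in 7 at 6p and 19q and in 6 at 1q. A single bin stood out at 18p: chr18:100001-200000, which carries the ubiquitin protease gene USP14, held 5.68 ± 1.076 times the mean bin in KO and 4.88 ± 0.949 in WT (SD, n = 8). No other member bin exceeded 3 times the median. The USP14 bin is among the 20 usable bins behind the 18p ratio of 0.28. Its part in that ratio and in the timing of the 18p end was not tested.

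Single bins of the ends were timed where every plate had at least 20 molecules, which 579 of 780 did. Their median was 0.303, with 285 under 0.3 and 156 over 0.6. The earliest was chr1:1200001-1300000, with UBE2J2, an enzyme of ubiquitin conjugation, SDF4 and the sodium channel subunit gene SCNN1D, at 0.147 ± 0.0466 (SD, n = 8). It was followed by a 7p bin with INTS1, a subunit of the Integrator complex, and MICALL2 at 0.149 ± 0.0600, and by chr17:1900001-2000000 with RPA1 at 0.1497 ± 0.0425. RPA1 is the large subunit of the protein that coats single-stranded DNA at forks. A 13q bin with DCUN1D2 at 0.155 ± 0.0259 and the RTEL1 bin at 0.156 ± 0.0430 completed the 5 earliest. The 5 latest bins were all at 3p, from chr3:1100001 to chr3:1900000, at 0.884 to 0.896. Of these, 3 lie in CNTN6 and 2 hold no protein-coding gene. Among the 780 member bins, 148 overlap no protein-coding gene.

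Of 6 listed genes of genome maintenance at the ends, 5 lay under 0.3, TERT being the exception. Their median was 0.201, beside a median of 0.303 over all timed member bins, with or without genes. At the same ends, timed zinc finger genes lay at 0.207 to 0.217 at 16q, 0.208 at 20q and 0.503 to 0.661 at 12q. FANCA shares its bin with one of them, ZNF276. Whether early timing goes with the function of these genes was not tested. RTEL1 lay at 0.156 ± 0.0430, CDT1, which licenses origins, at 0.175 ± 0.0933, and POLE, the catalytic subunit of the leading-strand polymerase, at 0.185 ± 0.0309 (SD, n = 8). FANCA, of the crosslink repair pathway, lay at 0.217 ± 0.0733 and EHMT1, a histone methyltransferase, at 0.251 ± 0.0341. TERT, the catalytic subunit of telomerase, lay at 0.471 ± 0.0428, above the other 5, with 0.407 in its lowest plate. The hTERT transgene of the line was not looked for, and its molecules cannot be told apart from those of the gene where sequence is shared. The 5 alpha-globin-type genes, HBZ, HBM, HBA2, HBA1 and HBQ1, share 1 bin at 16p with a timing of 0.209 ± 0.0740. HBA1 and HBA2 are near-identical.

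Most adhesion and neuronal genes lay late by the bin of their midpoint. Of 9 in the outer zones 7 had a timing, with a median of 0.793, 5 over 0.6 and 1 under 0.3. CNTN6 lay at 0.878 ± 0.0481 and CHL1 at 0.870 ± 0.0230. PTPRN2, a phosphatase-like protein of secretory vesicles, lay at 0.797 ± 0.0634, SNTG2, a syntrophin, at 0.793 ± 0.0256, and ADARB2, a brain protein related to RNA editing enzymes, at 0.666 ± 0.0479 (SD, n = 8). Long genes span several bins, and PTPRN2 was not late throughout. Other bins in which it is the only gene lay at 0.773 and 0.354, and a bin it shares with NCAPG2 at 0.213. DIP2C lay at 0.3303 ± 0.0794, and SHANK3, a scaffold of excitatory synapses, was early at 0.191 ± 0.0691.

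Of 11 signalling genes in the outer zones 6 were timed, from 0.168 to 0.646 with a median of 0.394, 2 under 0.3 and 1 over 0.6. NOTCH1, a receptor of cell fate, lay at 0.168 ± 0.0477 and PDGFA, a growth factor, at 0.209 ± 0.03997. FLT4, a receptor of lymphatic vessels, lay at 0.457 ± 0.0803. At 6p, FOXC1, a transcription factor of eye development, lay at 0.332 ± 0.0663, IRF4 at 0.536 ± 0.0688 and the phosphatase gene DUSP22 at 0.646 ± 0.0460. Of 10 genes listed under housekeeping and metabolism 6 were timed, with a median of 0.342. PLEC, a cytoskeletal linker, lay at 0.189 ± 0.0534, CSNK2A1, the catalytic subunit of casein kinase 2, at 0.204 ± 0.0879 and TYMS, which makes thymidylate, at 0.332 ± 0.0919. TBP and PSMB1 share a 6q bin at 0.568 ± 0.0805, and the tubulin gene TUBB8 lay at 0.353 ± 0.0580.

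Of 54 olfactory receptor genes in the outer zones 37 were timed, with a median of 0.680, 26 over 0.6 and 2 under 0.3. The 30 at 1q ran from 0.420 to 0.795, while OR2V2 at 5q lay at 0.265 ± 0.0693. Of 81 zinc finger genes 76 were timed, with a median of 0.409, 30 under 0.3 and 11 over 0.6. They differed by arm: the 6 at 8q lay between 0.171 and 0.211, the 45 at 19q between 0.206 and 0.806, and the 5 at 4p between 0.541 and 0.711. Genes of both families resemble each other, share bins and are not independent, so their medians carry no test.

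**Figure D3:**
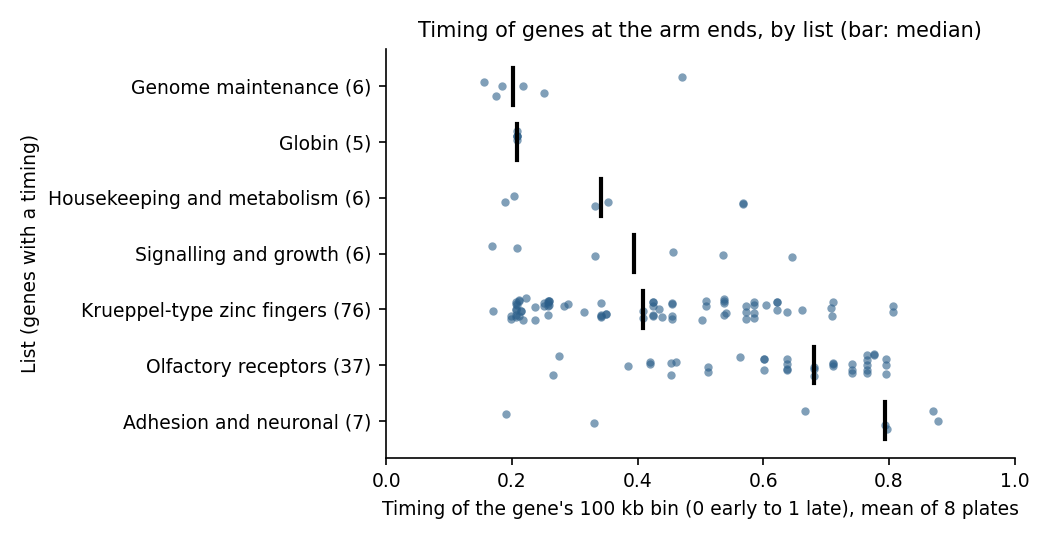
Timing of the 100 kb bin at the midpoint of each gene of 7 lists at the arm ends (0 early, 1 late). Values are means of 8 plates, both genotypes together. Each point is a gene and the bar is the list's median. Genome maintenance (0.201) and globin genes (0.209) lie early, olfactory receptors (0.680) and adhesion and neuronal genes (0.793) late.

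Between the genotypes the ends moved little on average. The timing step from outer to inner window was smaller in KO by 0.0128 ± 0.0113 (SD, n = 8), in 7 of 8 plates (exact sign-flip test, adjusted p = 0.0375). With molecules summed over all ends first the value was 0.00195 and did not pass, and the call was lost with any plate but plate 5 left out (adjusted p up to 0.075). The log2 molecule ratio differed by -0.000885 ± 0.0385, with 2 plates above 0 and 6 below (adjusted p = 0.953). Timing weights cells by their molecules, whose spread over S phase differed between the genotypes, as given below by group of cells. The part of this spread in the timing differences between KO and WT, here and at single ends, was not tested.

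Pooled over the 39 ends, outer bins took a larger share of label in early cells than in late cells. The pooled share differed between the genotypes in the latest cells. All cells were cut by their position into 4 equal groups. The earliest group held 2922738 molecules in KO and 5418611 in WT, and the latest 4014997 in KO and 5968329 in WT. Enrichment is the share of a group's molecules that lay in outer bins over the share of usable bins that are outer. In the earliest group it was 0.906 ± 0.0332 in KO and 0.872 ± 0.0219 in WT, in the next 0.716 ± 0.0315 in KO and 0.693 ± 0.0276 in WT, and in the one after 0.675 ± 0.0374 in KO and 0.660 ± 0.0306 in WT (SD, n = 8). In the latest group it was 0.621 ± 0.0270 in KO and 0.671 ± 0.0226 in WT, with plates from 0.592 to 0.658 in KO and from 0.629 to 0.699 in WT. The KO value was below that of WT in 8 of 8 plates there, although the ranges overlap, and the log2 difference was -0.11 ± 0.06 (adjusted p = 0.0313 over 4 groups). In the other 3 groups the log2 differences were 0.05, 0.05 and 0.03, with adjusted p of 0.0729, 0.0729 and 0.516. The molecule-weighted mean position within the latest group was 0.895 in KO and 0.886 in WT, and its part in the difference was not tested. The gap was uneven over ends. Enrichment in the latest group was 0.395 in KO and 0.867 in WT at 7q, and 0.484 and 0.799 at 19q. At 6p it was 0.627 and 1.24, while 11q went the other way, with 2.20 in KO and 1.91 in WT. The 7q and 19q ends held fewer KO molecules in all cells together, as given below. The part of single ends in the pooled difference was not tested. With any 1 plate left out the latest group's difference was -0.12 to -0.09, with an adjusted p of 0.0625 each time. Every remaining plate was below 0, so the unadjusted p was the smallest that the sign-flip test then allows. Adjusted over 4 groups, that p alone cannot pass 0.05, so these fits cannot decide whether the call holds. With at least 5000 molecules per cell the difference was -0.20 (adjusted p = 0.0156).

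**Figure D4:**
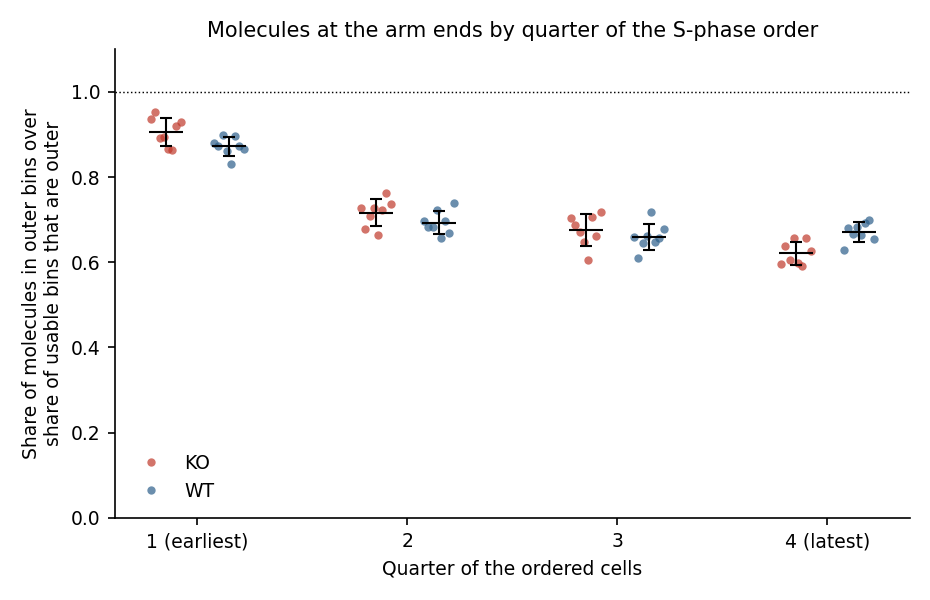
Share of molecules in outer bins over the share of usable bins that are outer, by group of ordered cells from the earliest (1) to the latest (4), in KO and WT. Points are 8 plates, black bars the mean and SD, and the dotted line marks an even share; the mean is 0.906 in KO and 0.872 in WT in the earliest and 0.621 in KO and 0.671 in WT in the latest group.

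Timing differed between KO and WT at 8 of 39 ends, 5 earlier and 3 later in KO (limma on 2 Mb windows, each library centred on its median window, which lay at 0.491 in KO and 0.475 in WT). Over all 1347 windows 16.3% were earlier, 20% later and 36.2% either, and the ends' own share was no higher. The largest shift was at 6p, with GMDS, which makes the donor sugar for fucose, the exocyst gene EXOC2 and DUSP22. Its outer timing was 0.395, 0.425 and 0.520 in the lowest, median and highest plate in KO, and 0.483, 0.583 and 0.6001 in WT. KO was earlier in 8 of 8 plates, though the ranges overlap, and the centred difference was -0.139 ± 0.0129 (SE; adjusted p = 1.77e-19). The next 2 Mb at 6p moved the other way, to 0.337 ± 0.0470 in KO against 0.275 ± 0.0311 in WT (SD, n = 8). In KO, 26.1% of the molecules of the 6p end came from the latest group of cells and 41.1% from the earliest, against 45.8% and 27.4% in WT.

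At 5q, with RNF130, a ubiquitin ligase, and CNOT6, an mRNA deadenylase, timing was 0.243, 0.321 and 0.362 in KO and 0.309, 0.377 and 0.421 in WT (lowest, median, highest plate). KO was earlier in 8 of 8 plates, by -0.0837 ± 0.0152 (SE; adjusted p = 1.28e-06), and the inner window was earlier too, at 0.528 in KO and 0.622 in WT. At 15q, with ADAMTS17, PCSK6 and LRRK1, the difference was -0.0459 ± 0.0127 (adjusted p = 0.00177), with 5 of 8 plates lower before centring. Smaller calls at 6q (-0.0407 ± 0.0156; adjusted p = 0.0301) and 7q (-0.0338 ± 0.0136; adjusted p = 0.0401) were lost without any of plates 1, 2, 3, 6 and 7, and 4, 5, 6 and 7, in that order of ends, with adjusted p up to 0.168 and 0.203.

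The ends later in KO were 13q, 5p and 10q. At 13q, with MCF2L and the flippase gene ATP11A, timing was 0.274, 0.309 and 0.355 in KO and 0.182, 0.217 and 0.287 in WT. All 8 plates had KO later, the ranges overlapping slightly, and the difference was 0.0780 ± 0.0177 (SE; adjusted p = 0.000113). The inner window of 13q lay at 0.569 in KO and 0.568 in WT. At 5p the plates ran from 0.391 to 0.485 in KO and from 0.294 to 0.388 in WT, with no overlap, and the difference was 0.0660 ± 0.0137 (adjusted p = 2.60e-05). At 10q the difference was 0.0548 ± 0.0131 (adjusted p = 0.000262), with KO later in 6 of 8 plates. These 3 calls, and those at 6p, 5q and 15q, held with each plate left out in turn.

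The step between outer and inner window also differed between the genotypes at single ends, a comparison added after the data had been seen. It was more positive in KO at 10 ends and more negative at 3 (limma, adjusted p under 0.05), and of all adjacent pairs 18.1% were more positive, 18.5% more negative and 36.6% either. The most negative was 6p, at -0.185 ± 0.0180, and the most positive 13q, at 0.0931 ± 0.0209 (SE; adjusted p = 2.96e-09 and 0.000682). For the molecule ratio of outer over inner window, limma called 0 of 39 ends, with 2 higher and 2 lower at an unadjusted p under 0.05, and of all pairs 0.154% higher, 0.232% lower and 0.386% either. With the plate as a block 0.849% of all pairs and again 0 of 39 ends were called.

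Molecules in the outer window differed between KO and WT at 4 ends, 3 of them lower in KO (limma voom), while 6.01% of all windows were lower, 3.19% higher and 9.21% either. At 7q, KO held 0.398, 0.485 and 0.553 of the mean bin in the lowest, median and highest plate, and WT 0.714, 0.827 and 0.9503. At 20p the values were 0.342, 0.447 and 0.641 in KO and 0.649, 0.764 and 0.924 in WT, and at 19q 0.498, 0.614 and 0.658 in KO and 0.843, 0.919 and 1.07 in WT. At none of these 3 ends did the plates of the genotypes overlap. The log2 differences were -0.77 ± 0.09 at 7q, -0.78 ± 0.11 at 20p and -0.69 ± 0.08 at 19q (SE; adjusted p = 5.34e-07, 9.60e-06 and 5.04e-07).

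The drop at these ends was not limited to the outer 2 Mb. In the next 2 Mb the log2 share of KO over WT was -0.73 ± 0.14 at 7q, -0.68 ± 0.33 at 20p and -0.72 ± 0.26 at 19q (SD, n = 8). Beyond 4 Mb, over all usable bins up to the middle of the chromosome, it was -0.45 ± 0.05 on the 7q side and -0.40 ± 0.12 on the 20p side, each with 8 of 8 plates below 0, and -0.08 ± 0.10 on the 19q side with 6 of 8. Across the 39 ends, the outer log2 share had a Pearson correlation with that beyond 4 Mb of 0.761, a description over ends that share libraries. Whether KO cells carry fewer copies of these stretches was not tested.

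**Figure D5:**
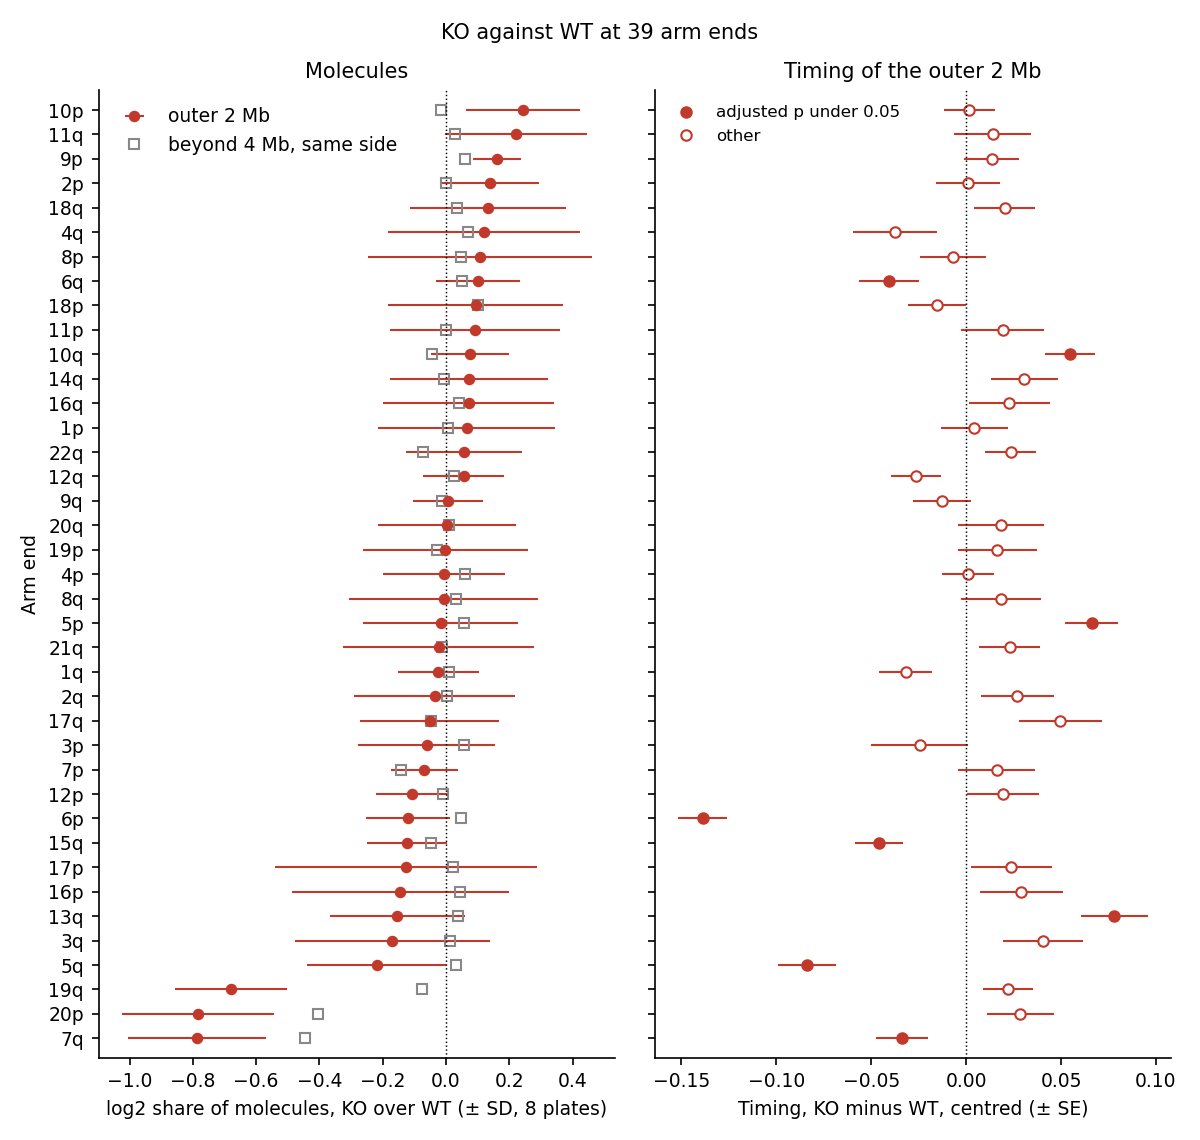
Left, log2 share of molecules, KO over WT, in the outer 2 Mb (filled circles, SD over 8 plates) and beyond 4 Mb on the same side of the chromosome (open squares), for 39 arm ends sorted by the outer value. Right, timing of the outer 2 Mb, KO minus WT after centring (SE; filled where the adjusted p is under 0.05). The 7q, 20p and 19q ends lie at -0.79 to -0.68 on the left, and 6p at -0.139 on the right.

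At 10p, with ADARB2, DIP2C and LARP4B, KO held 0.749, 0.872 and 1.00 of the mean bin in the lowest, median and highest plate and WT 0.665, 0.742 and 0.783. KO was higher in 8 of 8 plates, with overlap, by 0.24 ± 0.07 (log2, SE; adjusted p = 0.0217). The call was lost without any of plates 3, 5 and 7 (adjusted p up to 0.105) and when libraries were scaled by their upper quartile. With the plate as a replicate block, which called 16.3% of all windows, 2 further ends passed, 5q at -0.24 (adjusted p = 0.0347) and 11q at 0.23 (adjusted p = 0.0388).

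Of the 676 usable member bins, limma voom placed 19 lower and 2 higher in KO (adjusted p under 0.05). Over all 26041 bins, 1.29% were lower and 0.123% higher, 1.42% together. With the plate as a block 22 member bins were lower and 3 higher, and 1.87% of all bins were called. All 19 lay at 7q (7 bins), 20p (8 bins) and 19q (4 bins), where 18 of 19, 20 of 20 and 20 of 20 usable bins had a log2 value below 0. The 2 lowest at 7q adjoin each other within PTPRN2. In chr7:157635821-157735820 the log2 difference was -1.56 ± 0.32 (SE; adjusted p = 0.00306), and chr7:157535821-157635820 held 0.341 ± 0.137 of the mean bin in KO and 0.970 ± 0.188 in WT (SD, n = 8), a log2 difference of -1.53 ± 0.25 (SE; adjusted p = 6.86e-05). The lowest at 20p was chr20:700001-800000 with the riboflavin transporter gene SLC52A3, at 0.451 ± 0.194 in KO and 1.16 ± 0.258 in WT, a log2 difference of -1.44 ± 0.25 (adjusted p = 0.000147). Other called bins of 20p hold PSMF1, an inhibitor of the proteasome, RSPO4, an activator of Wnt signalling, ANGPT4 and defensin genes, and those of 7q hold NCAPG2, a condensin subunit, and VIPR2, a receptor of vasoactive intestinal peptide. With each plate left out in turn, the bins given above with their log2 differences stayed called in 8 of 8 fits. The other called bins of 7q, 20p and 19q stayed called in 1 to 8 of 8 fits, those with VIPR2 in 4 and 1.

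Of the 4 called bins of 19q, 3 hold zinc finger genes, among them ZNF135 in one and ZNF586, ZNF671 and ZNF776 in another, and 1 holds no protein-coding gene. Taking each listed gene by the bin of its midpoint, these 4 genes were the only ones called. The midpoint bin of PTPRN2 itself had -0.79 ± 0.25 (adjusted p = 0.0886). The log2 difference in the ZNF135 bin was -1.10 ± 0.24 (SE; adjusted p = 0.00549). At 6p, where timing moved most, DUSP22 had -0.61 ± 0.21, IRF4 -0.42 ± 0.21 and FOXC1 0.72 ± 0.22, with adjusted p of 0.137, 0.375 and 0.0766, so none passed. The genome maintenance genes had values between -0.14 (EHMT1) and 0.04 (POLE), none past the threshold. The 2 bins with more molecules in KO both lay at 9p and overlap no protein-coding gene. One, chr9:1300001-1400000, held 1.69 ± 0.408 of the mean bin in KO and 0.899 ± 0.425 in WT (SD, n = 8; log2 0.89 ± 0.21 SE, adjusted p = 0.0114). Its call was lost without plate 7, and that of the other, chr9:1700001-1800000, without any of plates 1, 2, 6, 7 and 8.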

How the data were processed

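Each row of the deposited files is a sequenced fragment with, per the file headers, its position in bp and a length whose sign gives its direction, beside its cell and genotype. The authors deposited no summed or scaled values. GRCh38 is the build that the submitters' processing notes name. The aligner, its filters and any step against duplicates are unknown: not given in the sources used here. Cells took their genotype from the files' treatment column, since the labels' genotype field names the knockout for every plate. Each fragment was taken as 1 molecule.

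Bins of 100 kb were counted from both chromosome ends. Cells with at least 1000 autosomal molecules were ordered by the first axis (18.8% of variation) of a correspondence analysis of 500 kb bins, the gene-rich end being early. Windows needed 5 usable bins and 50 molecules per library. For single values, an exact permutation test (sign flips of 8 plate differences, two-sided, smallest p 0.00781) was used, with Benjamini-Hochberg adjustment within each family. Windows, pairs of windows and bins were tested over all autosomes with limma 3.58.1 in R 4.3.3 (voom for molecules scaled by the total, pseudocount 0.5; trend for timing), calls at an adjusted p under 0.05. Limma moderates each variance toward that of all windows, pairs or bins tested. Its p-values and SEs thus do not rest on the plate spread at a single end alone. Because the files hold positions and no deposited counts, no negative-binomial count model was used. Python 3.11.15 with numpy 2.4.6, scipy 1.17.1 and pandas 2.3.3 did the rest. The cell order, the permutation test and the limma fits were also run on simulated data, apart from the fits of window pairs between KO and WT.

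By their titles the plates hold both genotypes, and so pair the libraries; deviations of both genotypes of a plate correlated by -0.138 to 0.455, best with their own plate in 4 of 8. The ends, gene lists and tests were chosen with earlier results of these data known. Named ends and bins are the 5 at either extreme of timing, of the outer-to-inner differences and of molecules, and those called between KO and WT, with up to 3 genes of the largest overlap; lists by function gave the other genes. Genes came from a RefSeq table (GRCh38.p14) with no strand, so overlapping genes share molecules; its 135 protein-coding rows on scaffolds were left out, because their coordinates are not those of the chromosome. Alternatives covered the cell minimum, bin filters, repeated fragments, zone width, cell weights, the order, plates left out, the scaling and the plate as a block.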

Additional observations from a re-analysis of the deposited data

Results flagged for a closer look

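Of 62 groups of 8 plates tested for a plate far from the others, 4 had one, and chance gives about 1 in 20. At 6q, KO plate 2 had a timing of 0.739 and 1.21 times the mean bin, above the other 7 plates in both. The 6q timing difference between KO and WT was no longer called without plate 2, nor without plate 1, 3, 6 or 7. At 19q, KO plate 3 was earlier than the rest, at 0.416. In the second group of ordered cells, plate 7 had a log2 difference of enrichment between KO and WT of 0.19, the next plate being 0.06.

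The timing step from outer to inner window differed between KO and WT at 13 ends by limma's test of that difference. It was more negative in KO at 6p (-0.185), 4q (-0.0702) and 15q (-0.0613). It was more positive at 14q (0.0556), 8q (0.0596), 17p (0.0626), 2q (0.0632), 10q (0.0778), 11q (0.0801), 17q (0.0838), 5p (0.0856), 3q (0.0868) and 13q (0.0931). The calls at 2q, 5p, 8q, 10q and 14q were lost with 1 of several plates left out, plate 7 among them at each. The timing of the outer window itself was not called between the genotypes at 2q, 3q, 4q, 8q, 11q, 14q, 17p and 17q. Of all adjacent pairs of the autosomes, 36.6% had a step called between KO and WT.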

How the results depend on the processing

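Over 24 results and 357 alternative values, 301 kept their direction and their side of the threshold. Zones of 1 Mb turned the outer-to-inner molecule ratio to 0.0111 in KO and 0.0559 in WT (log2). The KO minus WT timing step lost its call with 5000 molecules per cell (0.00944), zones of 1 Mb (0.00403), the median over ends (0.0254) and the sum over ends (0.00195), and ran from 0.0111 to 0.0157 with a plate left out. The KO minus WT molecule ratio was 0.00167 with 300 molecules per cell, 0.0125 without chromosomes 7, 10, 12, 19 and 20, -0.0421 with bins of at least 0.5 of the median (32 ends; called, adjusted exact p = 0.0188), and -0.0122 to 0.00312 with a plate left out. Of the enrichment differences, the earliest group gave -0.0195 with equal weight per cell, and was called with repeated fragments counted once (0.0562) and without those chromosomes (0.124). The second group gave -0.0129 with equal weight per cell and was called at 5000 molecules (0.124) and without those chromosomes (0.0653). The third group gave -0.0215 at 5000 molecules. The latest group gave -0.201 at 5000 molecules. It ran from -0.120 to -0.0950 with a plate left out, where its p alone could not pass after adjustment. The same ranges were 0.0439 to 0.0706 in the earliest, 0.0262 (without plate 7) to 0.0542 in the second and 0.0130 (without plate 2) to 0.0725 (without plate 5) in the third group. Counts that moved were 16 lower molecule ratios with bins of at least 0.5 of the median, 3 ends earlier in KO with equal weight per cell, and 0 ends with more molecules in KO under upper-quartile scaling. With a plate left out, 3 to 6 ends were earlier (3 without plate 6 or 7) and 3 to 5 later in KO (5 without plate 1 or 5), and 0 to 2 held more molecules (0 without plate 3, 5 or 7, and 2 without plate 8). Bins with fewer molecules numbered 10 to 20 (10 without plate 2, 12 without plate 5) and those with more 0 to 3 (0 without plate 7, and 1 without plate 1, 6 or 8), and 5 to 11 ends had a more positive step (5 without plate 7). With the plate as a replicate block, 2 ends held more and 4 fewer molecules in KO, and no other count of calls at the ends moved by over 1.5 times. Molecules per covered 10 kb step, added after seeing the data, kept the outer-to-inner ratios below 0. The causes of these changes were not tested. Of 676 usable member bins, 579 had enough molecules for a timing.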
